A study of Mus musculus with 13 samples.

Results

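The Grem1 and Fmn1 landscape was the stretch of mouse chromosome 2 within 200 kb of the gene body of Grem1 or Fmn1, chr2:113127736-113958646 on mm10, 830.911 kb in all. Its members were the ATAC-seq regions whose strongest summit lay in this stretch, 672 regions over the 13 libraries. Regions of 12 libraries that shared at least 1 bp were joined, which gave 111 landscape regions of 264485 over the genome. They are numbered R001 to R111 along the chromosome, and each is placed below by the distance of its summit from the Grem1 start. Fmn1 (chr2:113327736-113716767, plus strand) and Grem1 (chr2:113746164-113758646, minus strand) are transcribed toward each other, and their ends lie 29.396 kb apart.

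Grem1 encodes Gremlin 1, a secreted protein that binds BMP ligands and keeps them from their receptors. In the limb bud mesenchyme it is part of a feedback loop in which SHH from the posterior margin and FGFs from the apical ridge maintain each other while BMP activity is held low. Fmn1 encodes formin 1, which nucleates actin filaments. The limb control elements of Grem1 are known to lie in part inside Fmn1, and limb deformity mutations once assigned to Fmn1 act by loss of Grem1 expression.

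ATAC-seq reads out where Tn5 transposase can cut, and hence where chromatin is accessible. Each library was made from 50000 cells of pooled E12.5 embryos, from distal forelimb (DFL), proximal forelimb (PFL) or forebrain (FB). The wild-type (wt) groups and the homozygous allele 542 groups shared the B6CBAF1 background. Allele 542 carries a transgene with II1, a distal limb enhancer element of the HoxD locus, inserted into the neighbouring T-DOM on the same chromosome, 37.9 Mb from the landscape. There were 2 libraries in each of the 6 groups. A further wt DFL library, made earlier, enters no comparison unless it is mentioned.

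The 12 libraries held 85070 to 118297 regions, at an estimated 37.5 to 70.7 M tags (M for mega), where a tag is 1 transposase cut. The FB library wt FB 1 was the deepest. Hoxd13 and Hoxa13, which mark distal limb cells, had a higher fold at their starts in DFL than in PFL, with log2 differences of 1.06 and 0.71 (limma adjusted p = 0.000639 and 0.0115). Twist1, a limb mesenchyme marker, was higher in limb than in FB by 1.27 (limma adjusted p = 3.3e-07). Prrx1, the other member of that list that could be tested, had a mean fold of 5.38 in DFL, 4.80 in PFL and 7.25 in FB, with limb minus FB of -0.35 (limma adjusted p = 0.0564). The starts of the forebrain markers Emx2 and Sox2 did not pass the test, nor did any of the 3 proximal limb starts (Meis1, Meis2 and Shox2) between DFL and PFL. Of the endothelial genes Kdr was higher in limb by 0.71 (limma adjusted p = 0.000247) and Cdh5 had a region in 1 FB library. The muscle genes Myod1 and Myf5, the epidermal genes Trp63 and Krt5 and the limb gene Tbx5 had regions in 12, 6, 6, 1 and 4 libraries, and no region lay at Gata1 or Klf1 of red blood cells. How far the mix of cells bears on the values below was not tested.

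Some of the regions that were called in every library of a tissue and in none of another are printed here, before their values. Such regions were few, and their counts are given below beside the share over the genome. The limb-only regions are those called in all 8 limb libraries and in no FB library. Each line holds the 300 bases around the summit, plus strand, from the RefSeq assembly GRCm38.p6. Capitals mark any match to the 6 core motifs searched on both strands, which were CAATAAA (HOX13), TGGGTGGTC (GLI), TGACAG (MEIS), TAATTA (LIM homeodomain), CAGATG (E-box) and the CTCF core.
R046, limb-only, chr2:113465379-113465678: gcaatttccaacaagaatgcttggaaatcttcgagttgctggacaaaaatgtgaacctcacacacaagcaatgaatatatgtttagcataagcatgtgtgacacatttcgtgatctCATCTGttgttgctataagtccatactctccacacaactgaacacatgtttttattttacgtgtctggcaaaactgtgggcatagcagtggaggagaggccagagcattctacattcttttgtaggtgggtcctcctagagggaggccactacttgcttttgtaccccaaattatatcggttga
R051, limb-only, chr2:113498218-113498517: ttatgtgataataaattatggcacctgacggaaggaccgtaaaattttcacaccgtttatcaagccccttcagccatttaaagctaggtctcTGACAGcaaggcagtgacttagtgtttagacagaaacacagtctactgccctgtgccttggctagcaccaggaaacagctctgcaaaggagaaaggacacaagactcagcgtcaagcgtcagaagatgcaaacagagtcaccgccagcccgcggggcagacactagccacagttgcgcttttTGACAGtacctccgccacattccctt
R061, limb-only, chr2:113575904-113576203: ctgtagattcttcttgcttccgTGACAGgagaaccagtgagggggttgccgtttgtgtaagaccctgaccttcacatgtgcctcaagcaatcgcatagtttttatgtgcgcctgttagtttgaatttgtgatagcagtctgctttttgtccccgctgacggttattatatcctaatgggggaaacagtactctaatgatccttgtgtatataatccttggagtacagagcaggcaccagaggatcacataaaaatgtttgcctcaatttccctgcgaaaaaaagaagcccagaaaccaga
R088, limb-only, chr2:113724465-113724764: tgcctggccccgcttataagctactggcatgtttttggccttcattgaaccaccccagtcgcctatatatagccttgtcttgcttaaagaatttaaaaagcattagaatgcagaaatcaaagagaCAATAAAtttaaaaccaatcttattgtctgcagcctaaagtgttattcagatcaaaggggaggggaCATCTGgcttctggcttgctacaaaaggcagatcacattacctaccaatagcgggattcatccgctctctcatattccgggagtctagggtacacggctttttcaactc
R062, DFL and no PFL or FB library, chr2:113581037-113581336: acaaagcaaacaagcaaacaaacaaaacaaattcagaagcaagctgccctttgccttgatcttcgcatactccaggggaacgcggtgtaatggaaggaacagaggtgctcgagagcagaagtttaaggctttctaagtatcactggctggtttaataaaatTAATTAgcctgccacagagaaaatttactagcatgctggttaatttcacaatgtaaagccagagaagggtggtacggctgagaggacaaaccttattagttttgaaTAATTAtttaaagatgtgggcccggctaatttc
R074, PFL and no DFL or FB library, chr2:113652140-113652439: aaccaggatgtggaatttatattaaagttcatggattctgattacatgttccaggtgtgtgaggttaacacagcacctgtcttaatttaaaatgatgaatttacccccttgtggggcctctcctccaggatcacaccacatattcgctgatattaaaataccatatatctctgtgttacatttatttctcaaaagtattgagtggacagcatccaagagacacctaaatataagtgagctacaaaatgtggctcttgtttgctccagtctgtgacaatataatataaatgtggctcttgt
R076, FB and no limb library, chr2:113654740-113655039: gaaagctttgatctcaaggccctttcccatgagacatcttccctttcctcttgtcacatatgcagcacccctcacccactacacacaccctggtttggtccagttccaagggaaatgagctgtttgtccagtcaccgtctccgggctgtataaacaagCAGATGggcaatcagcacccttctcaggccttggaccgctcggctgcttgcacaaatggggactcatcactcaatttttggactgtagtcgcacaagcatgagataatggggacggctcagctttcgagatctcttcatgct
R051 held 2 MEIS matches and R061 held 1. R088 held 1 HOX13 and 1 E-box match, R046 and R076 held 1 E-box match each, and R062 held 2 LIM homeodomain matches. R074 held none of these letters.

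The motifs are described over all 111 landscape windows of 300 bases beside the 264485 windows of the genome. The MEIS letters were in 33.3% of landscape windows and 23.0% of all windows. The E-box letters were in 33.3% and 27.9%, the LIM homeodomain letters in 14.4% and 14.0%, and the HOX13 letters in 5.41% and 7.48%. The CTCF core was in 3.60% (4 of 111 windows) and 2.17%, and the GLI letters in 0.901% (1 of 111 windows) and 0.304%. No motif searched contains another. A match says only that the letters are in the window.

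The landscape held more regions in limb than in forebrain. DFL libraries had 58 and 56 regions in wt and 61 and 57 in 542, PFL libraries 60 and 64 in wt and 56 and 50 in 542, and FB libraries 34 and 38 in wt and 38 and 37 in 542. All 8 limb libraries thus lay above all 4 FB libraries. The depths were 37.5 to 54.5 M tags in limb and 51.4 to 70.7 M in FB. All limb libraries but wt DFL 1 (54.5 M) and wt PFL 2 (52.7 M) were shallower than every FB library. The part of depth in the counts was not tested. Covered length was 23178 to 30906 bp in limb libraries and 18424 to 19981 bp in FB libraries. Per 10000 regions of the same library, the density was 5.62 ± 0.402 (SD, n = 8) in limb and 3.67 ± 0.387 (SD, n = 4) in FB, a difference of 1.96 with a two-sided exact permutation p of 0.00202, which is the lowest possible with 495 assignments (0.00606 after Benjamini-Hochberg adjustment over 3 tests). A smaller share of cells with an open region and a less open region in each cell cannot be told apart in such bulk libraries.

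Most of the gap lay within Fmn1. Fmn1 held 64 of the 111 regions, with 31 to 38 per library in limb and 18 to 21 in FB. Ahead of Fmn1, toward Ryr3, the counts overlapped, at 8 to 14 in limb and 9 to 11 in FB. Beyond the Grem1 start, toward Scg5 and Arhgap11a, they were 8 to 15 and 6 to 7. No value was tested by stretch.

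**Figure D1:**
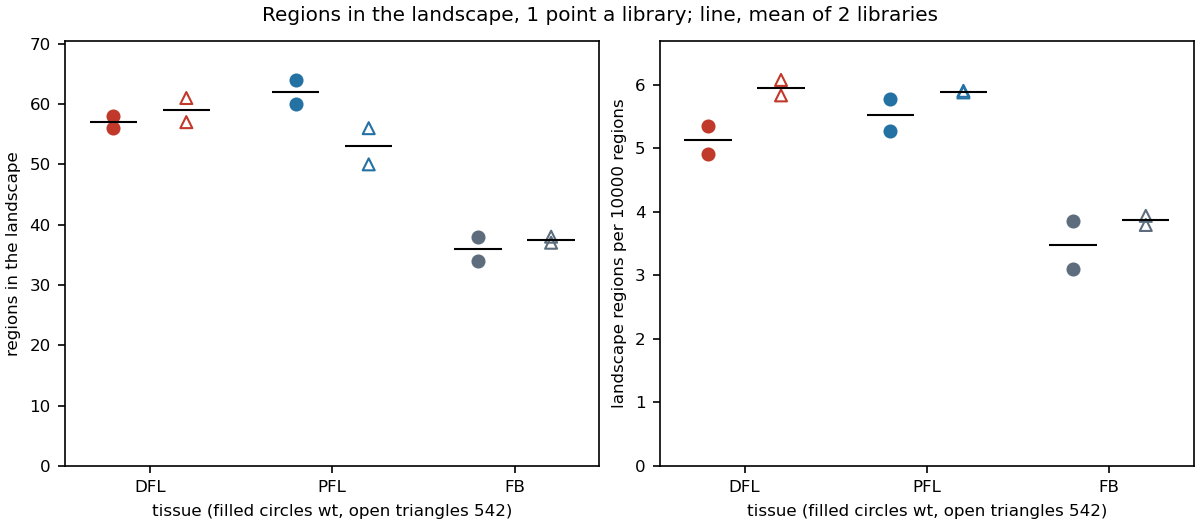
Regions in the landscape (left) and landscape regions per 10000 regions of the same library (right), 1 point a library by tissue, with the mean of 2 libraries as a line. FB libraries sit between 34 and 38 regions, below every limb library (50 to 64).

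No difference in density was found between DFL and PFL, at 5.54 ± 0.520 and 5.71 ± 0.295 regions per 10000 (SD, n = 4 each, two-sided exact permutation p = 0.657). The 542 libraries held 5.24 ± 1.07 and the wt libraries 4.71 ± 1.02 per 10000 (SD, n = 6 each, over 3 tissues). The difference of 0.53 had p = 0.0185 by an exact permutation test within tissue over 216 assignments, two-sided (adjusted p = 0.0278). The counts themselves overlapped between the genotypes in DFL and FB and were lower in 542 in PFL, and the 542 libraries held fewer regions over the genome (85070 to 100425 against 98720 to 118297). Over the 50000 strongest regions of each library the difference was 0.17 with exact permutation p = 0.676, and it missed the threshold without any of 542 DFL 1, 542 DFL 2, 542 PFL 1, 542 PFL 2, wt FB 1 or wt FB 2 (exact permutation p = 0.120 to 0.565).

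The map of called regions by distance from the Grem1 start shows the layout. Of the 111 regions, 19 were called in all 12 libraries (background 10.7% of regions over the genome) and 32 in a single library. In every tissue the highest fold of the landscape was at the Fmn1 start, followed by the Arhgap11a start.

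**Figure D2:**
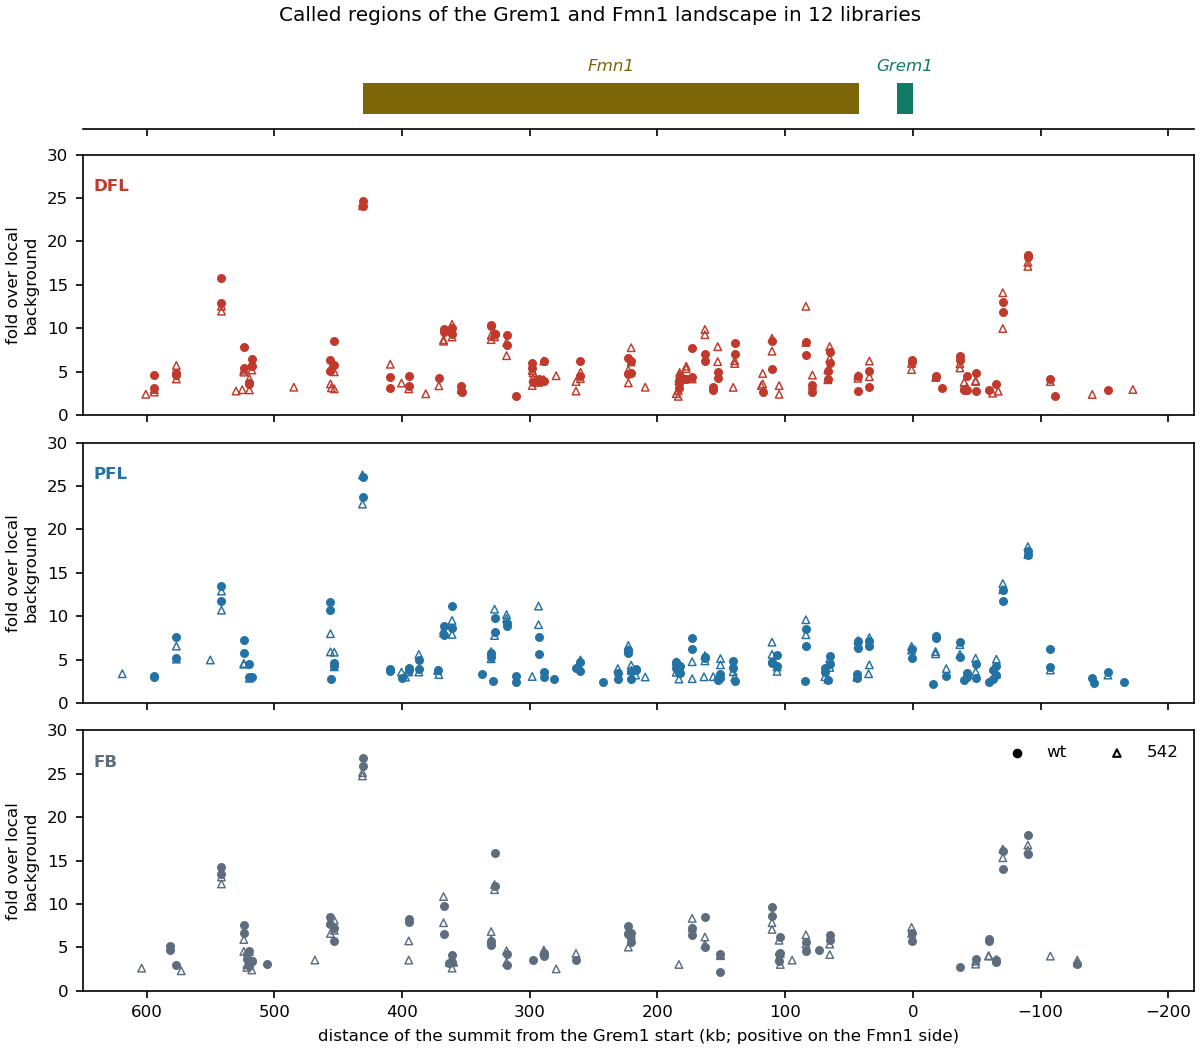
Fold over local background of every called landscape region in the 12 libraries (y axis) against the distance of its summit from the Grem1 start in kb (x axis), by tissue, with wt as filled circles and 542 as open triangles and with the bodies of Fmn1 and Grem1 on top. The Fmn1 start stands at 22.9 to 26.8 in all libraries, and FB panels hold fewer points inside Fmn1 than limb panels.

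The Grem1 start was open in every library at a middling level. Its region R089 (chr2:113757173-113759262) spans the start, and its strongest summit over all libraries lay 0.987 kb inside the gene. Each library's fold is that of its own strongest summit in R089, and this was not 1 site throughout. It lay beyond the start in wt PFL 1, wt PFL 2, 542 DFL 2 and wt FB 2, and inside the gene in others. The comparisons below are thus of the whole region and not of 1 summit. The fold, which is the tags under the summit plus 1 over the local background plus 1, was 6.40 and 6.17 in wt DFL, 5.24 and 5.95 in 542 DFL, 6.26 and 5.17 in wt PFL, 6.51 and 6.09 in 542 PFL, 6.67 and 5.79 in wt FB, and 6.62 and 7.31 in 542 FB. With the genotypes pooled, the ranges of the 3 tissues overlapped. Within DFL both 542 values lay below both wt values, and both 542 FB values lay above every limb value. The summits rested on 57 to 127 tags and stood at the 60.5th to 72.9th percentile of the fold within their libraries. On the median-centred log2 scale, on which each library's median is set to 0, DFL minus PFL was -0.08 ± 0.15 (SE, adjusted p = 0.802), limb minus FB 0.03 ± 0.11 (adjusted p = 0.840) and 542 minus wt 0.12 ± 0.11 (adjusted p = 0.626), by limma across all regions called in each library compared. None of the 3 comparisons passed the threshold at the Grem1 start.
The 250 bases ahead of the start, which this region covers, were GC-rich at 71.6%, against a median of 45.0% for the 300-base windows of the landscape, and held none of the motifs searched.
Grem1 promoter, chr2:113758647-113758896, minus strand: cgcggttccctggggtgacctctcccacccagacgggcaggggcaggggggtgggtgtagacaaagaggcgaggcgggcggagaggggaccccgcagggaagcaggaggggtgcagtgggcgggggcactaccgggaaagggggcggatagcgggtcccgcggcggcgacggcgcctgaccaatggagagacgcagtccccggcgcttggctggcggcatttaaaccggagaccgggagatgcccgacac

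The Fmn1 gene has 3 start regions with different tissue patterns. The main start, R022 (chr2:113327200-113328115, 431 kb from the Grem1 start), ranged in fold from 24.1 to 24.7 in DFL, from 22.9 to 26.3 in PFL and from 24.8 to 26.8 in FB, at the 99.8th percentile or above in every library. The DFL range lay just below that of FB, and the PFL range overlapped both. Limb minus FB was 0.11 ± 0.03 after centring (limma adjusted p = 0.00798) but -0.06 without centring (limma adjusted p = 0.176), so that its direction rests on the scaling.

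The start of transcript Fmn1-201, R042 (chr2:113440213-113441481, 318 kb), did separate the tissues. In the order wt 1, wt 2, 542 1, 542 2, its fold in DFL was 9.26, 8.06, 6.84 and 8.37, in PFL 8.86, 9.21, 10.2 and 9.73, and in FB 2.92, 4.28, 3.29 and 4.62. Every limb library lay above every FB library, and limb minus FB was 1.41 ± 0.14 (limma adjusted p = 2.97e-06). The start of transcript Fmn1-209, R026 (chr2:113363511-113364753, 395 kb), was called in 7 of 8 limb libraries, at a fold of 3.02 to 4.53, and in FB it had 7.92 and 8.31 in wt and 5.76 and 3.54 in 542. The FB values overlapped those of limb through 542 FB 2. R026 was not called in 542 DFL 1 and so was left out of the fit. With that missing value set to the lowest fold of its library, limb minus FB was -0.82 (limma adjusted p = 0.00353). The filled value is a limb value and lowers the limb mean, so that this difference is given as a description only.

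The neighbouring coding genes were open at their starts in every tissue. R009 at Ryr3, a calcium release channel gene, had a fold of 10.7 to 15.8 in limb and 12.3 to 14.3 in FB. R102 at Scg5, which encodes a neuroendocrine chaperone, had 9.97 to 14.1 in limb and 14.1 to 16.3 in FB, and limb minus FB was -0.13 ± 0.09 (limma adjusted p = 0.264), or -0.30 without centring (limma adjusted p = 0.0101). R103 at Arhgap11a, a GTPase-activating protein gene, had 17.0 to 18.4 in limb and 15.8 to 18.0 in FB, with a centred difference of 0.25 ± 0.05 (limma adjusted p = 0.00111) that was 0.08 without centring (limma adjusted p = 0.176). Tmco5b, the remaining one of 6 coding genes with a start in the landscape, had no region at its start.

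There were 5 limb-only regions of 111 (4.50%), a share near the 3.80% of the genome, and 4 of the 5 lay in Fmn1 while R088 lay between the genes. Called in all 4 FB and in no limb library were 2 of 111 regions (1.80%, background 6.40%), with a fold of 4.23, 3.69, 3.03 and 2.70 at R013 (522 kb, intergenic) and of 4.38, 6.19, 3.04 and 4.31 at R076 (104 kb, intron of Fmn1). R046 (293 kb, intron of Fmn1) had a fold of 3.96 and 4.18 in wt DFL and 3.88 and 3.77 in 542 DFL, and 7.56 and 5.60 in wt PFL and 9.02 and 11.2 in 542 PFL. All its PFL values lay above all its DFL values. R086 (43.0 kb, over the last exon of Fmn1) had 4.54, 2.80, 4.24 and 4.53 in DFL and 6.27, 7.09, 6.73 and 7.19 in PFL, again without overlap. R088 (34.0 kb, chr2:113724147-113724850) had 3.22, 5.08, 4.42 and 6.23 in DFL and 6.60, 7.09, 7.52 and 4.39 in PFL, which overlapped. R051 (260 kb, over an exon of Fmn1) and R061 (183 kb, intron) had 3.70 to 6.23 and 3.48 to 4.90 over the 8 limb libraries, with no order between DFL and PFL.

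The summits of R051 and R061 rested on 22 to 36 and 26 to 47 tags, those of R086 and R088 on 15 to 46 and 21 to 46 tags, and those of R046 on 24 to 80 tags. A region just short of a call is not listed, so that absence from FB is absence of a call at FB depth and not a measured 0. With a fold of at least 5 asked of every call, 3 of 47 regions were limb-only (background 4.13%) and 0 of 47 FB-only (background 9.11%).

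Between the limb parts, 2 of 99 regions were called in all 4 DFL and in no PFL library (background 2.69%) and 3 of 99 in all 4 PFL and in no DFL library (background 1.94%). All 5 lay in introns of Fmn1. R062 (177 kb) had a DFL fold of 4.21 and 4.19 in wt and 5.63 and 5.36 in 542, and R080 (78.6 kb) had 2.64, 3.51, 4.61 and 3.40. R074 (106 kb) had a PFL fold of 4.30, 5.51, 3.64 and 4.15, and R068 (151 kb) had 3.38, 2.86, 5.11 and 4.39. Of the 5, R068 alone was also called in FB, at 2.22 to 4.26. The DFL count depended on single libraries, with 5 of 97 regions without wt DFL 2 (genome 3.58%). The PFL count was 5 of 94 without 542 DFL 1 (genome 2.26%) and 7 of 98 without 542 PFL 2 (genome 3.23%).

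**Figure D3:**
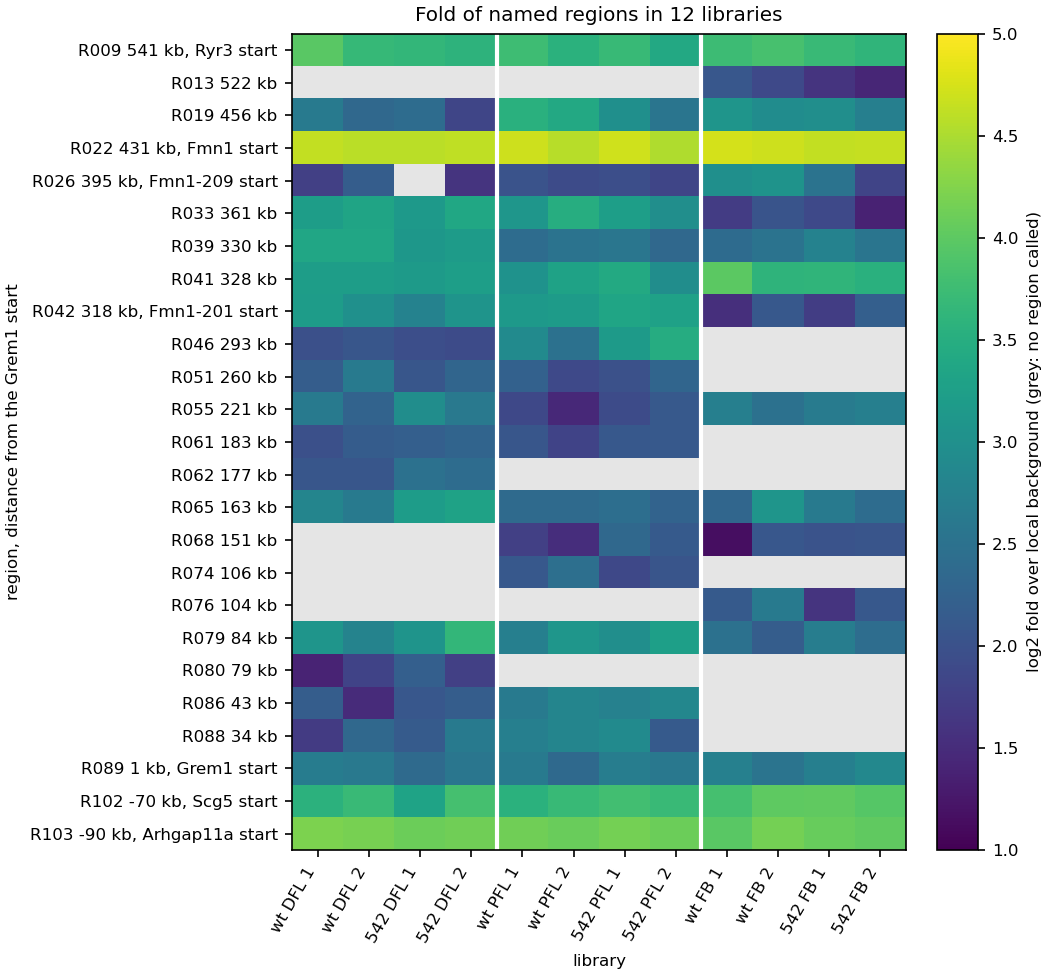
Log2 fold over local background of named regions (rows, with the distance from the Grem1 start) in the 12 libraries (columns), with grey where no region was called. R046, R051, R061, R086 and R088 are grey in all FB columns, and the row of the Grem1 start is nearly even across tissues.

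Where a region was called in every library, the size of the fold could be compared. Of 27 landscape regions called in all 8 limb libraries, 3 were higher in DFL (background 6.93% of 43333 regions) and 3 higher in PFL (background 6.93%), by limma with Benjamini-Hochberg adjustment. The median difference over the 27 was -0.02, and -0.03 over all regions tested. Leaving out wt DFL 1 or wt PFL 2 left 1 region higher in DFL (genome 4.83% and 5.00%).

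The 3 regions higher in DFL lay in Fmn1. R039 (330 kb, chr2:113428151-113428976) had a fold of 10.3, 10.3, 8.70 and 9.19 in DFL and 5.31, 5.74, 5.91 and 5.09 in PFL. The parts did not overlap, and DFL minus PFL was 0.74 ± 0.13 (limma adjusted p = 0.00215), whereas its FB fold of 5.30 to 6.83 was like that of PFL. R055 (221 kb, chr2:113537743-113539468) had 6.26, 4.81, 7.76 and 6.12 in DFL, 3.66, 2.75, 3.76 and 4.35 in PFL and 5.61 to 6.63 in FB, with a difference of 0.72 ± 0.18 (limma adjusted p = 0.0161). R065 (163 kb, over an exon of Fmn1) had 6.25 to 9.86 in DFL, 4.85 to 5.45 in PFL and 5.02 to 8.52 in FB, with a difference of 0.56 ± 0.15 (limma adjusted p = 0.0191). R055 and R065 lost the call without wt DFL 1 (limma adjusted p = 0.0694 and 0.0737) or without wt PFL 2 (0.0750 and 0.0519), and each without 2 further libraries.

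The 3 regions higher in PFL were limb-only R046 and R086 and the intergenic R019. R046 differed by -1.10 ± 0.17 (limma adjusted p = 0.000859) and kept the call in each setting in which it could be tested. R086 differed by -0.85 ± 0.18 (limma adjusted p = 0.00687), or by -0.57 without all replicate 2 libraries (limma adjusted p = 0.284). R019 (456 kb, chr2:113302076-113302947, between Ryr3 and Fmn1) had 6.30, 5.08, 5.35 and 3.59 in DFL and 11.7, 10.7, 7.98 and 5.88 in PFL, which overlapped, and 6.61 to 8.52 in FB. Its difference was -0.88 ± 0.17 (limma adjusted p = 0.00332), and the adjusted p was 0.0783 without all replicate 2 libraries. R039 likewise missed the threshold without all replicate 1 or all replicate 2 libraries, both in DFL minus PFL (limma adjusted p = 0.0505 and 0.0756) and in limb minus FB (limma adjusted p = 0.0900 and 0.142).

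Further regions were strong in one limb part and only partly called in the other, and were chosen here after their values were seen. R070 (140 kb) had 8.30, 7.07, 5.94 and 6.27 in DFL, a call in 2 of 4 PFL libraries at 2.51 and 2.97, and none in FB. R067 (153 kb) had 4.33 to 7.89 in DFL, 2.62 and 3.06 in PFL and no call in FB. In the other direction R091 (17.8 kb beyond the Grem1 start, at the 3′ end of Scg5) had 5.66 to 7.71 in PFL and 4.34 to 4.55 in 3 DFL libraries, with no call in FB. With missing values set to the lowest fold of the library, DFL minus PFL was 1.68 for R070, 1.38 for R067 and -0.996 for R091. These values are given as a description, since each region entered that fit through the limb part in which it was called throughout.

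Between limb and forebrain, 6 of the 19 regions called in all 12 libraries were higher in limb (background 23.8% of 28404 regions) and 1 was higher in FB (background 16.0%). Without centring the split was 4 (background 13.1%) and 5 (background 39.2%). In that setting the median limb minus FB difference over the 28404 regions called in all 12 libraries was -0.14 on the log2 scale. The strongest difference was at R033 (361 kb, chr2:113397359-113398482), in an intron of Fmn1. Its fold was 7.90 to 11.2 in limb with a median of 9.41, and 3.27, 4.11, 3.67 and 2.62 in FB. The groups stood far apart, and limb minus FB was 1.66 ± 0.14 (limma adjusted p = 6.34e-07).

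R079 (83.7 kb, chr2:113674448-113675482, intron of Fmn1) had a limb fold of 6.60 and more with a median of 8.42, and 5.60, 4.54, 6.46 and 5.39 in FB. All limb values lay above FB, with a difference of 0.81 ± 0.15 (limma adjusted p = 0.000543), which was smaller without all replicate 2 libraries, at 0.53. R039, higher in DFL, was also higher in limb by 0.47 ± 0.11 (limma adjusted p = 0.00356). R033, R039, R042 and R079 kept the call without centring, while the starts of Fmn1 and Arhgap11a did not.

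R041 (328 kb, chr2:113430783-113431260) was the region higher in FB, close to R039. It had 15.9, 12.1, 12.2 and 11.7 in FB and 7.77 to 10.8 in limb with a median of 9.34, without overlap. The difference of -0.31 ± 0.10 had a limma adjusted p of 0.0199, which was 0.132 without wt FB 1, 0.0728 without 542 FB 1 and 0.0666 with the earlier wt DFL library added.

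**Figure D4:**
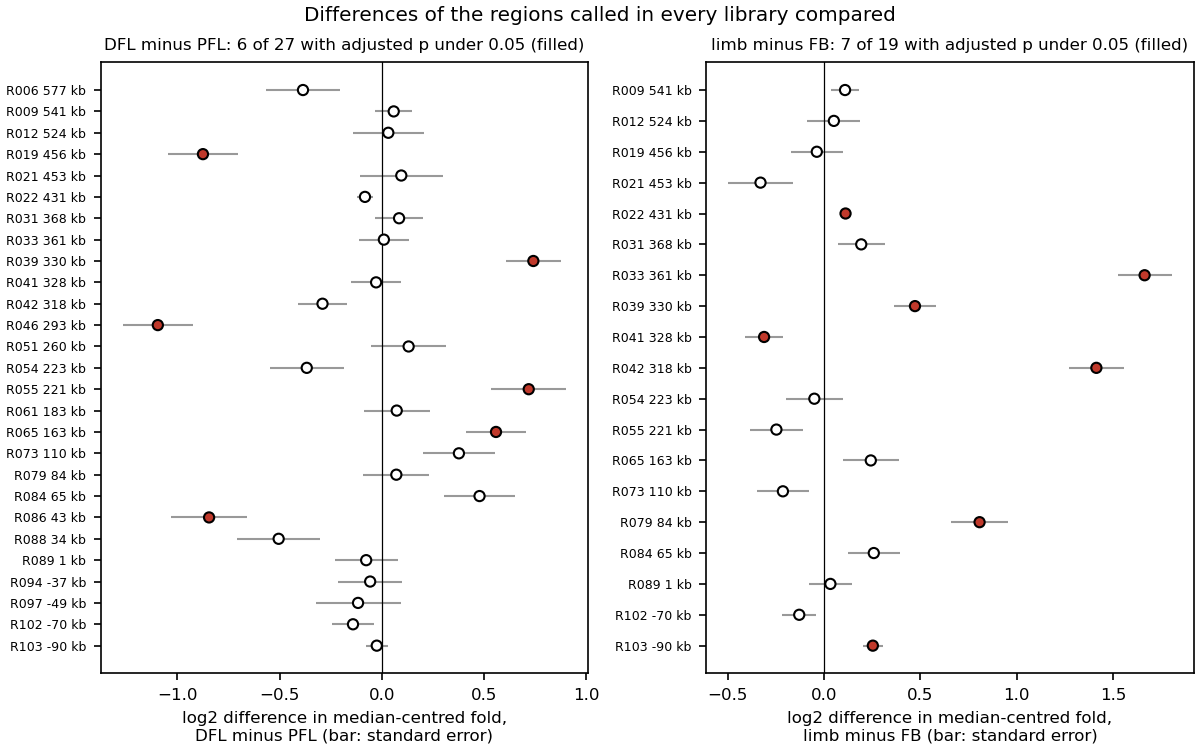
Log2 difference in median-centred fold (x axis, with the standard error as a bar) of the landscape regions called in every library compared, for DFL minus PFL and limb minus FB, with regions placed by distance from the Grem1 start and filled points for an adjusted p under the threshold. R033 and R042 stand out to the right in limb minus FB, at 1.66 and 1.41.

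No landscape region called in all 12 libraries passed the test between genotypes, in a design that compared 6 libraries with 6. No region was called in all 6 libraries of 542 and in none of wt (background 0.00832%) or in all 6 of wt and none of 542 (background 0.0121%). Within DFL, 3 of 77 regions were called in both 542 and no wt library (background 2.00%) and 1 in both wt and no 542 library (background 6.12%). Within PFL the counts were 0 of 79 (background 1.37%) and 6 (background 8.01%), and within FB 0 of 48 (background 2.15%) and 1 (background 4.21%). These counts rest on 2 libraries against 2. In DFL, 542-only regions numbered 6 of 72 without wt DFL 1 (genome 5.41%), 8 of 66 without 542 DFL 1 (genome 8.80%) and 14 of 72 without 542 DFL 2 (genome 10.9%). The wt-only regions there were 4 without wt DFL 1 (genome 14.6%), 6 without wt DFL 2 (genome 19.2%) and 7 without 542 DFL 2 (genome 11.3%). In PFL, wt-only regions numbered 13 of 72 without wt PFL 1 or wt PFL 2 (genome 19.9% and 21.3%) and 10 of 73 without 542 PFL 1 (genome 15.6%). The 542-only regions there were 1 without wt PFL 2 (genome 3.06%), 3 without 542 PFL 1 (genome 6.33%) and 6 without 542 PFL 2 (genome 7.61%). In FB, 542-only regions numbered 2, 4 and 4 without wt FB 1, 542 FB 1 and 542 FB 2 (genome 5.87%, 7.65% and 9.47%). The wt-only regions there were 5, 2 and 3 without wt FB 1, wt FB 2 and 542 FB 1 (genome 11.8%, 15.4% and 8.82%). The 3 regions of 542 DFL, R050, R059 and R075, lay in introns of Fmn1, and R050 and R075 were also called in libraries of other tissues.

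By limma, 0 of 19 regions were higher in 542 (background 0.433%) and 0 higher in wt (background 0.275%). At an unadjusted p under 0.05 there were 2 in each direction. These were R055 and R079, higher in 542 by 0.33 and 0.36 (limma adjusted p = 0.243 and 0.230), and R012 and R019, lower by 0.38 and 0.35 (limma adjusted p = 0.190 and 0.217). The share of all regions at that unadjusted threshold was not counted, so that no genotype result is read from these regions. The DFL minus PFL difference passed no test of a change with genotype (limma, 0 of 27 in each direction, background 0% and 0%). There 1 region, R021, had an unadjusted p under 0.05, again without the share of all regions. With missing values at the lowest fold, 1 of 51 regions was lower in 542 than in wt within PFL (background 1.34%). It was R004, in an intron of Ryr3, with a fold of 3.06 and 2.97 in wt PFL and no call in 542 PFL, and it differed by -0.88 (limma adjusted p = 0.0412). Both 542 PFL values in that fit were filled in and not measured, so that the difference and its p rest on the fill. They are given as a description and not as a genotype result. At R039, R046 and R086 the values of DFL and PFL did not overlap within wt or within 542.

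The loop in which Grem1 acts was read out at the starts of 30 genes, of which 29 had a region and 24 had one in all 12 libraries. Of 26 tested, Hoxd13 and Hoxa13 were higher in DFL (background 6.93%), and Chrd, which encodes another BMP antagonist, was the 1 gene higher in PFL (background 6.93%), by 0.70 (limma adjusted p = 0.00771). Its mean fold was 8.89 ± 1.19 in PFL and 5.99 ± 2.20 in DFL (SD, n = 4 each). Of 24 tested, 5 were higher in limb than FB (background 23.8%) and 2 lower (background 16.0%). Hand2, a bHLH factor upstream of Shh, had a mean fold of 5.80 in DFL, 6.34 in PFL and 4.21 in FB, higher in limb by 0.70 (limma adjusted p = 0.000807). Bmp7, a BMP ligand, was higher in limb by 0.57, Lhx2 by 0.34, Tbx3 by 0.24 and Hoxd13 by 0.93.

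Those lower in limb were Msx2, a BMP target gene, by 0.57, and Spry4, an FGF feedback inhibitor, by 0.34. None of these called directions turned without centring, but the sizes changed. Limb minus FB was then 0.07 at Tbx3 and 0.16 at Lhx2, smaller than with centring, and -0.75 at Msx2 and -0.51 at Spry4, larger in size. Only the direction was checked in that setting, and not the call. None of the 24 passed the threshold between 542 and wt. The antagonist gene Nog passed the threshold in neither tissue comparison, with limb minus FB of 0.00. Among the ligands, the Shh start was called in 3 DFL, 1 PFL and all 4 FB libraries, the Fgf8 start in 1 DFL library and the Fgf4 start in 5 libraries, and no region lay at the Fgf17 start. The median limb minus FB difference was 0.10 over the list and 0.03 over all regions tested.

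The coding gene starts whose fold was most like that of the Grem1 start over the 12 libraries were Rpl22 (Pearson's r = 0.885), Commd6 (0.870), Plppr2 (0.851), Zfp652 (0.842) and Slc30a4 (0.841), of 12993 start regions. For the Fmn1 start they were Tmem220 (0.977), Muc1 (0.957), Scrn1 (0.929), Camk2a (0.911) and Wtip (0.910). These values describe a narrow range, since the centred log2 fold spanned 0.37 at the Grem1 start and 0.23 at the Fmn1 start, and all starts share the libraries and their depth.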

How the data were processed

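ATAC-seq libraries from 2 replicates of each of 6 groups (wt and 542; DFL, PFL and FB) were grouped by their labels, and the members and gene lists below were chosen with earlier results of these data known. Each replicate was a separate pool of embryos. The authors trimmed reads with Cutadapt, aligned them with bowtie2 to mm10 (wt) or to a mutant genome rebuilt with the insertion (542), removed low mapping quality and duplicate reads, and called peaks in each library alone with MACS2, without a control. The deposited files give for each summit a fold, which is a ratio to local background, a −log10 p-value and a −log10 q-value, the lowest of which was 1.30. The score that the authors deposited, a rounded multiple of the −log10 q-value, was left aside. No values are normalised between libraries.

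In 542 files 4218 was subtracted from chromosome 2 positions above 75273815. This was checked on landscape summits of 542 with a fold of at least 5, 17 to 27 per library. They then lay 5.00 to 22.5 bp (median per library) from the nearest wt summit, against 3560 to 4214 bp as deposited. Summits that share their start and end form 1 region with the strongest fold, and regions of the 12 libraries that shared 1 bp were joined. Tags are the whole number at which fold and p-value are both met within 0.001, found for 94.3% to 99.0% of summits tried, and library totals from the commonest local background. These totals are estimates of depth, and tag counts carry counting error.

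Density was tested by exact permutation. The log2 fold, centred on each library's median, was tested with limma 3.58.1 (trend, group means) in R 4.3.3 on regions called in all libraries compared, with Benjamini-Hochberg adjusted p under 0.05. The fit was first checked on simulated data. Other steps used Python 3.11.15 (scipy 1.17.1, numpy 2.4.6, pandas 2.3.3; matplotlib 3.10.9 for figures), with GENCODE M21 annotation and a start reach of 500 bp. Regions were named by rule: gene starts, the 5 strongest per tissue, up to 6 per presence pattern or limma direction, and those between the genes. A named region and some genes of the lists are not reported here.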

Additional observations from a re-analysis of the deposited data

Results flagged for a closer look

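Within tissues, 62 groups of 4 libraries were screened for a library far from the other 3, of which chance flags about 1 in 20, and 4 were flagged. Of these, 3 concerned wt FB 1, the deepest of the 12 libraries at 70.7 M tags. It held 3.09 landscape regions per 10000, against 3.79 to 3.93 in the other FB libraries. Its fold was 15.9 at R041, against 11.7 to 12.2, and 2.22 at R068, against 4.05 to 4.26. At R061 the library wt PFL 2 had a fold of 3.48, against 4.22 to 4.35 in the other PFL libraries. The part of depth in these values was not tested.

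The earlier wt DFL library, which enters no comparison, had 63 landscape regions, and 4 of them lay over no region of the 12 libraries, with a highest fold of 6.93. It was deeper, at 78.0 M tags.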

How the results depend on the processing

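The limb against FB density kept its direction in every setting and its call in each setting that allowed one (without all replicate 1 or all replicate 2 libraries the exact permutation p of 0.0667 is the lowest possible), with differences of 1.76 to 2.095 when libraries were left out. DFL minus PFL turned to 1.00 over the 20000 strongest regions, to 0.15 at a −log10 q of at least 10 and to 0.0462 without wt DFL 1 (range without libraries -0.344 to 0.0462). For 542 minus wt the call was lost over the 50000 and 20000 strongest regions (0.17 and 0.75), at a fold of at least 5 (0.20) and at a −log10 q of at least 10 (0.0847), and the range without libraries was 0.21 to 0.83.

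Limb-only regions numbered 3 of 54 over the 50000 strongest (genome 4.82%), 2 of 16 over the 20000 strongest (3.72%), 3 of 47 at a fold of at least 5 (4.13%) and 2 of 55 at a −log10 q of at least 10 (3.79%), and FB-only regions 0 in these 4 settings (genome 7.40% to 9.97%). Among the 20000 strongest, 1 of 16 regions was DFL-only (genome 2.61%) and 0 PFL-only (1.77%), and at a −log10 q of at least 10, 6 of 48 were DFL-only (3.47%). Without libraries the counts were 5 to 8 limb-only (genome 3.99% to 6.97%) and 2 to 4 FB-only (6.57% to 11.6%). They were 2 to 6 DFL-only (2.69% to 7.55%) and 3 to 9 PFL-only (1.94% to 6.15%).

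In the limma fits, without centring 5 of 19 regions were higher in FB (genome 39.2%), and R022 turned to -0.064 (to -0.037 with missing values at the lowest fold). With missing values at the lowest fold, 12 of 47 were higher in DFL (genome 20.3%), 10 in PFL (18.7%), 24 of 51 in limb (39.3%) and 12 in FB (40.7%), in a fit that any region called throughout 1 tissue enters. At a −log10 q of at least 10 in every library 0 were higher in PFL (genome 2.87%), and with the earlier library added 0 were higher in FB (genome 15.0%). Without libraries the counts were 0 to 3 for DFL, 1 to 4 for PFL, 3 to 7 for limb and 0 to 3 for FB. Without all replicate 1 or all replicate 2 libraries 1 library a group remains, so that an additive fit of tissue and genotype was used and no interaction was run. No shared deviation of same-numbered libraries was seen, as 0 of 15 correlations of their deviations exceeded 0.1 (-0.036 to 0.016). This cannot show whether the tissues of a replicate number came from the same embryos, which the labels do not say. With a replicate block the counts were 3, 3, 6 and 1, as without it, and 0 for 542 against wt in either direction. The cause of the changes was not tested otherwise. The regions called in all libraries of 1 tissue and none of another rest on 15 to 80 tags. An absent call is not a measured 0, and the part of depth in absent calls was not tested.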
